A study of Mus musculus with 18 samples.

Results

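The respiratory chain was described here through the transcripts of its subunits and of ATP synthase, encoded partly in the nucleus and partly on mitochondrial DNA. Members were taken by symbol from a table of 23511 mouse genes. Nuclear members had symbols beginning with Nduf and a subunit letter and number, Uqcr, Cox4 to Cox8 or Atp5, or were one of Sdha to Sdhd. Mitochondrial members were the protein-coding mt- genes, and symbols ending in -ps were dropped. The rule gave 98 genes, 85 nuclear and 13 mitochondrial, and used no measured value. By symbol, the nuclear members fell into complex I (40 genes), complex II (4), complex III (8), complex IV (16) and complex V (17). The mitochondrial members fell into complexes I (7), III (1), IV (3) and V (2). Of the nuclear members, 4 are annotated as processed pseudogenes, Cox6c2, Ndufa11b, Ndufb4c and Ndufs6b.

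Complexes I and II pass electrons from NADH and succinate to ubiquinone, complex III passes them to cytochrome c and complex IV to oxygen, and complex V is the ATP synthase driven by the resulting proton gradient. Complexes I, III, IV and V are built from subunits of both genomes, so their assembly needs transcription in the nucleus and in the mitochondrion, whereas complex II is entirely nuclear-encoded. Macrophages are known to shift between oxidative phosphorylation and glycolysis with their activation state.

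RNA was sequenced from macrophages of the mouse peritoneal cavity, sorted as Tim-4high or Tim-4low by the phosphatidylserine receptor Tim-4, a marker of resident macrophages. There were 18 libraries in 6 groups of 3. Mice without a tumor had no treatment, and gave the no-tumor Tim-4high and Tim-4low groups. The other mice carried MC38-LG tumors in the peritoneal cavity, where MC38 is a mouse colon carcinoma line, and received an isotype control antibody or an antibody against Tim-4, giving 2 isotype and 2 anti-Tim-4 groups. Dosing with the antibody against Tim-4 took place 7 days after the tumor cells were injected, and the harvest followed at 10 days. No-tumor mice were harvested on the same day, and since no antibody is listed for them, tumor and antibody cannot be told apart in comparisons with them. Strain, sex, age and the way RNA was selected for the libraries are not given in the labels. Since no label assigns the libraries of a group to different animals, the p-values here reflect only how these samples spread, and that spread may be technical.

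Libraries held 24530070 to 34110392 estimated counts. Values below are in CPM, counts scaled to library sizes with TMM factors, and 3 values in a row are the 3 libraries of a group. Timd4, which encodes Tim-4, lay at 622 to 886 CPM in no-tumor, 280 to 320 in isotype and 169 to 219 in anti-Tim-4 Tim-4high libraries, and at 9.13 to 109 CPM over all Tim-4low libraries. The summed level of 9 macrophage markers was lower with the tumor in both populations. In Tim-4high libraries it was 36750 to 45370 CPM without a tumor, 21840 to 23090 with isotype and 20390 to 21300 with anti-Tim-4. In Tim-4low libraries it was 26720 to 29680, 17850 to 19090 and 17920 to 20980. None of these markers was at 0 throughout a group. Markers of other cells also changed with the tumor. Summed B cell markers were 75.5 to 844 CPM without a tumor and 3.62 to 35.9 with tumor and isotype, and summed neutrophil markers 1.13 to 7.36 and 37.3 to 261. Summed monocyte markers were 415 to 1077 in no-tumor Tim-4high, 2265 to 3065 in no-tumor Tim-4low, 7811 to 8111 in isotype Tim-4high and 4117 to 5367 in isotype Tim-4low libraries. Epithelial and tumor cell markers (2 of 5 higher with the tumor) summed to 0.491 to 7.71 CPM without a tumor and 7.67 to 24.8 with tumor and isotype. A set of 16 proliferation genes summed to 273 to 556 CPM without a tumor and 681 to 971 with tumor and isotype. Single libraries stood apart. No-tumor Tim-4low library 1 had 109 CPM of Timd4 against 9.52 and 9.13 in the other two, 844 of summed B cell markers against 80.4 and 109, and 137 of summed mast cell markers against 3.88 and 5.46. No-tumor Tim-4high library 1 was also high in B cell and mast cell markers (264 and 87.5 CPM), and both isotype libraries 3 in neutrophil markers (239 and 261). Tim-4high and Tim-4low isotype libraries 3 were high in other markers too. Their sums were 107.5 and 118.5 CPM for T cells (14.49 to 26.92 in the other isotype libraries) and 12.67 and 14.33 for NK cells (1.196 to 2.378). For dendritic cells they were 63.83 and 50.4 (12.92 to 15.54), and for B cells 29.72 and 35.88 (3.623 to 7.294). Both anti-Tim-4 libraries 3 were low in summed monocyte markers. These were 4053 CPM against 12110 and 9481 in Tim-4high, and 3353 against 11790 and 9115 in Tim-4low libraries. The part of these cells in the results below was not tested. In bulk samples such as these, fewer cells of a type and less RNA per cell cannot be told apart.

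One property of the mouse genome bears on the mitochondrial counts. A stretch of nuclear chromosome 1 (mm10) holds near-identical copies of several mitochondrial genes, and reads from either place cannot be separated. The start of mt-Co2 (chrM:7013-7072, plus strand) and of its copy Gm28661 (chr1:24615506-24615565, minus strand) show the case of complete identity, since all 681 aligned bases of the pair match. A stretch of mt-Co1 (chrM:6390-6423) and of its copy Gm29216 (chr1:24616155-24616188, minus strand) hold the single mismatch between them, in capitals, A1066T counted from the 5′ end of mt-Co1. These are GENCODE M21 transcripts.
mt-Co2: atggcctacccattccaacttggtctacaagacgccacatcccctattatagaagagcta
Gm28661: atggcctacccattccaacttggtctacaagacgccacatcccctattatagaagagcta
mt-Co1: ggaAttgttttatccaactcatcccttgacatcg
Gm29216: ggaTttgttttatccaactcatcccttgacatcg
Of the counts assigned to mt-Co2 or Gm28661, 49.9% to 54.1% stood under the copy. The shares were 48.6% to 52.0% for the copy of mt-Co3 (Gm28437) and 45.4% to 50.8% for that of mt-Atp6 (Gm10925), which are identical over 783 and 678 bases. For mt-Nd4l (Gm10222) the share was 33.9% to 51.2% and for mt-Nd3 (Gm28438) 17.5% to 31.9%. The copies of mt-Nd4 and mt-Co1 held little, 2.72% to 6.93% and 0.373% to 0.973%. The deposited counts of mt-Co2, mt-Co3, mt-Atp6, mt-Nd4l and mt-Nd3 are therefore uncertain in level. Among the nuclear members, Ndufb4 and Ndufb4c (chromosome 15) are identical over 390 bases, and 70.4% to 76.2% of their joint counts stood under Ndufb4c. The use of strand in counting is not given, so reads of mt-Nd6, which lies on the other strand than the remaining mitochondrial members, cannot be told apart from RNA copied from the opposite strand of the same place.

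Levels per kilobase used the joined length of all annotated exons of a gene. For nuclear members it can exceed the length of a transcript, as for Cox6c (3567 against 503 bases) and Ndufb4 (1916 against 971). The order of nuclear members, and their distance from the mitochondrial ones, are therefore uncertain. By this measure, all mitochondrial members had higher means than the nuclear ones in no-tumor Tim-4high cells. In no-tumor Tim-4low cells 11 of 13 did, and mt-Nd3 (179 CPM per kilobase) and mt-Nd4l (155) lay below Cox6a1 (206). Both share reads with a chromosome 1 copy, which held 17.5% to 31.9% of the joint counts for mt-Nd3 and 33.9% to 51.2% for mt-Nd4l. Their places in the order, here and below, are therefore uncertain. In no-tumor Tim-4high cells mt-Co1, the catalytic subunit of complex IV, had the highest level, at 3873 CPM per kilobase. It was followed by mt-Co2 with 1504, mt-Nd1 with 1262 and mt-Cytb with 1208. The lowest mitochondrial member was mt-Nd3, whose range over the 3 libraries (224 to 290) met that of the highest nuclear member, Cox6a1 (195 to 227). Below Cox6a1, at a mean of 208, came Atp5a1 (the alpha subunit of the ATP synthase head) at 128.0, Cox4i1 at 123, Cox8a at 119, Cox7a2l at 113 and Atp5o at 103 CPM per kilobase. Their ranges over the 3 libraries overlapped for Atp5a1, Cox4i1, Cox8a and Cox7a2l, so the order among these neighbours is not resolved. In isotype Tim-4high cells Cox6a1 (324 CPM per kilobase) stood level with mt-Atp8 (323), and the top 4 mitochondrial members kept their order.

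The nuclear part stood higher in every tumor library than in any no-tumor library, whereas the mitochondrial part did not. Summed over the 85 nuclear members, no-tumor Tim-4high libraries had 4200, 4347 and 4135 CPM and no-tumor Tim-4low libraries 4450, 4696 and 4851. Isotype libraries had 6271, 6207 and 6393 CPM in Tim-4high and 5882, 6206 and 6259 in Tim-4low cells. Anti-Tim-4 libraries had 6254, 6182 and 5927 CPM in Tim-4high and 6053, 6600 and 5813 in Tim-4low cells. All 12 tumor libraries thus lay above all 6 no-tumor libraries, and the 4 tumor groups overlapped.

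The mitochondrial sum gave another order. No-tumor Tim-4high libraries had 16450, 12914 and 15312 CPM and no-tumor Tim-4low libraries 12423, 9565 and 10044, all below the former. Isotype libraries had 13247, 14186 and 15917 CPM in Tim-4high and 13981, 13060 and 13941 in Tim-4low cells. Anti-Tim-4 libraries had 14428, 14789 and 13333 CPM in Tim-4high and 13409, 11765 and 13136 in Tim-4low cells. All 4 tumor groups overlapped with no-tumor Tim-4high, and of them only anti-Tim-4 Tim-4low overlapped with no-tumor Tim-4low. The gene mt-Co1 alone made up 38.6% to 46.2% of the mitochondrial sum.

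The ratio of the mitochondrial to the nuclear sum was 3.53 ± 0.496 (SD, n = 3) in no-tumor Tim-4high cells, against 2.30 ± 0.426 in no-tumor Tim-4low, 2.30 ± 0.189 and 2.24 ± 0.136 in isotype Tim-4high and Tim-4low, and 2.32 ± 0.0717 and 2.09 ± 0.264 in anti-Tim-4 Tim-4high and Tim-4low cells. Its 3 libraries, at 3.92, 2.97 and 3.70, lay above the other 15, whose values ran from 1.78 to 2.79. The 5 other groups overlapped. With the chromosome 1 copies counted as mitochondrial the group ratios were 4.19, 2.75, 2.71, 2.65, 2.75 and 2.47 in the same order, with no-tumor Tim-4high libraries again the highest 3. The mitochondrial part held 1.05% to 1.65% of a library's counts and the nuclear part 0.418% to 0.670%. A list of 4 RNAs retained in the nucleus also moved. In Tim-4high libraries it summed to 2080 to 2393 CPM without a tumor, 1072 to 1311 with isotype and 1066 to 1807 with anti-Tim-4. In Tim-4low libraries it summed to 1941 to 2344, 1200 to 2197 and 1633 to 1879, where no-tumor and isotype overlap. Its bearing on the sums above was not tested.

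**Figure D1:**
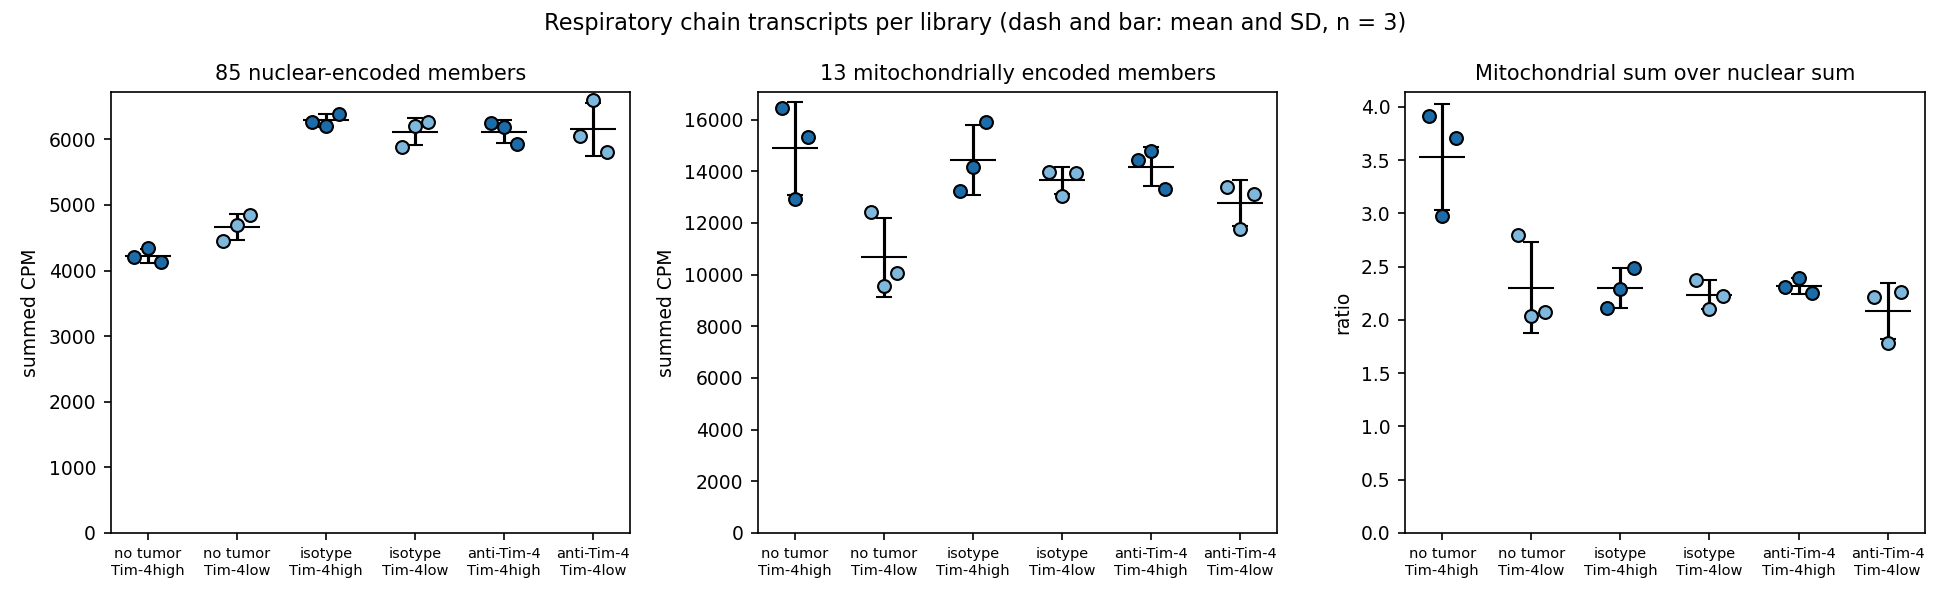
Summed CPM of the 85 nuclear members, summed CPM of the 13 mitochondrial members, and the ratio of the sums, for each of 18 libraries in 6 groups, with the mean and SD of 3 libraries. Nuclear sums of all tumor libraries (5813 to 6600) lie above those of no-tumor libraries (4135 to 4851), and the no-tumor Tim-4high group has the 3 highest ratios.

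Most nuclear subunits rose with the tumor in every complex of Tim-4high macrophages. Between isotype tumor and no-tumor Tim-4high cells, 74 of the 83 nuclear members tested were higher and 1, Ndufa4, was lower at an adjusted p under 0.05 (edgeR's quasi-likelihood test with Benjamini-Hochberg adjustment over all genes). Of all 16609 genes tested, 27.3% were higher and 24.1% lower. The members' median log2 fold change was 0.57, against -0.01 over all genes. Higher members were 36 of 39 tested in complex I, 4 of 4 in complex II, 8 of 8 in complex III, 11 of 15 in complex IV and 15 of 17 in complex V. Every isotype library lay above every no-tumor library for 76 of the 85 nuclear members and below for 3. Among all genes this held for 29.5% and 28.1%. Changes were moderate. Among the 71 members called higher whose tumor level was at least 10 CPM, folds ran from 1.19 to 2.14 with a median of 1.51, 37 reached 1.5-fold and 2, Uqcrq and Ndufv3, reached 2-fold.

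Of the 8 nuclear members that were not called in that comparison, 6 were low in level. Ndufs6b, Cox6a2, Cox6b2, Cox6c2, Atp5g2 and Atp5s stayed at or under 4.11 CPM in the compared libraries. The other 2 were Ndufa1, an accessory subunit of complex I (log2 fold change 0.25, edgeR adjusted p = 0.0680), and Cox7a2l (0.18, adjusted p = 0.149). Ndufa11b and Cox4i2 were too low to be tested.

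In Tim-4low cells 68 of 83 nuclear members were higher with the tumor and isotype and 2, Ndufa4 and Cox7a2l, were lower (edgeR, adjusted p under 0.05). Over all genes 25.2% were higher and 24.6% lower. Without both no-tumor libraries 1, 62 were higher and 2 lower, and without both isotype libraries 3, 62 and 3. The members' median log2 fold change was 0.44, against -0.02 over all genes. By complex, 32 of 39 were higher in complex I, 3 of 4 in complex II, 7 of 8 in complex III, 11 of 15 in complex IV and 15 of 17 in complex V. Isotype libraries did not overlap with no-tumor libraries for 73 of 85 members that lay above and 4 that lay below, where the shares among all genes were 29.1% and 28.9%. In the 66 called higher with at least 10 CPM, folds ran from 1.15 to 1.85 with a median of 1.39, and 18 reached 1.5-fold. All 68 members called higher in Tim-4low cells were also called higher in Tim-4high cells. The 6 others called higher in Tim-4high cells were Ndufa6, Ndufb4, Ndufb11, Ndufv1, Sdha and Uqcrh.

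In complex I, Ndufv3, a small subunit of the NADH-oxidising module, had the largest rise in Tim-4high cells among the members with at least 10 CPM. It had 36.6, 38.4 and 34.0 CPM in no-tumor Tim-4high and 74.9, 75.2 and 70.1 in isotype Tim-4high libraries. In Tim-4low libraries it had 39.7, 40.4 and 41.4 CPM without a tumor and 69.0, 69.0 and 72.7 with tumor and isotype. The tumor and no-tumor libraries did not overlap. The log2 fold changes were 1.01 ± 0.07 (SE, n = 3 per group; edgeR adjusted p = 5.18e-08) in Tim-4high and 0.79 ± 0.07 in Tim-4low cells (adjusted p = 5.66e-07). Ndufc1, a membrane-arm accessory subunit, rose by 0.97 and 0.77 on the log2 scale.

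Ndufs4, an accessory subunit whose loss destabilises complex I, had the largest rise in Tim-4low cells among the complex I members with at least 10 CPM. Its levels were 16.1, 19.0 and 16.0 CPM without and 29.9, 33.8 and 31.1 with the tumor in Tim-4low, and 15.2, 16.1 and 14.4 against 26.9, 26.7 and 26.5 in Tim-4high libraries. The groups did not overlap in either population. The log2 fold changes were 0.89 ± 0.08 in Tim-4low (edgeR adjusted p = 3.92e-07) and 0.81 ± 0.08 in Tim-4high cells (adjusted p = 9.14e-07). The core iron-sulfur subunit Ndufs1 rose less, by 0.46 in Tim-4high and 0.28 in Tim-4low cells.

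Complex II, succinate dehydrogenase, has no mitochondrial gene. Its membrane anchor Sdhd lay at 57.4, 67.5 and 61.2 CPM in no-tumor and 103, 102 and 117 in isotype Tim-4high libraries. In Tim-4low libraries it lay at 70.2, 73.8 and 77.2 without and 98.3, 107 and 103 with tumor and isotype. The tumor libraries were above all no-tumor libraries. Sdhd rose by 0.79 ± 0.07 on the log2 scale in Tim-4high (edgeR adjusted p = 3.25e-07) and by 0.48 ± 0.07 in Tim-4low cells (adjusted p = 4.16e-05). Sdhb, the iron-sulfur subunit, had 0.50 and 0.69, and Sdhc, the other anchor, 0.59 and 0.58, all called. Sdha, the flavoprotein that oxidises succinate, was the exception in size, with 0.25 in Tim-4high (adjusted p = 0.000722) and 0.07 in Tim-4low cells (adjusted p = 0.247).

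In complex III, Uqcrq, the subunit VII of the bc1 complex, showed the largest rise of the nuclear members above 10 CPM in Tim-4high cells. No-tumor Tim-4high libraries had 39.5, 44.1 and 39.2 CPM and isotype Tim-4high libraries 85.1, 88.1 and 88.9. No-tumor Tim-4low libraries had 49.1, 56.3 and 58.4 CPM and isotype Tim-4low libraries 83.8, 91.0 and 93.7. The 2 populations started apart without a tumor and overlapped with it. The log2 fold changes were 1.09 ± 0.08 (edgeR adjusted p = 6.73e-08) and 0.71 ± 0.08 (adjusted p = 4.49e-06) in Tim-4high and Tim-4low cells. Uqcrb rose by 0.84 and 0.47, and Uqcrfs1, the Rieske iron-sulfur protein, by 0.72 and 0.38, while the core proteins Uqcrc1 and Uqcrc2 rose by 0.41 and 0.47 in Tim-4high and 0.32 and 0.31 in Tim-4low cells.

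Complex IV combines 3 mitochondrial catalytic subunits with nuclear ones that often come in paralogous isoforms. The widely expressed subunits Cox7b (log2 fold changes 0.98 in Tim-4high and 0.83 in Tim-4low), Cox7a2 (0.94 and 0.84), Cox8a (0.87 and 0.57), Cox5b (0.86 and 0.75), Cox6b1 (0.79 and 0.57), Cox6a1 (0.63 and 0.47) and Cox4i1 (0.56 and 0.32) all rose in both populations (edgeR). Cox5a, which binds the matrix side of the complex, had 38.5, 47.9 and 48.1 CPM in no-tumor Tim-4high, 58.2, 66.8 and 69.0 in no-tumor Tim-4low, 77.0, 86.0 and 88.9 in isotype Tim-4high and 92.8, 94.4 and 94.7 in isotype Tim-4low libraries. These 4 groups did not overlap. Its rise with the tumor was 0.90 ± 0.10 in Tim-4high (edgeR adjusted p = 2.77e-06) and 0.54 ± 0.10 in Tim-4low cells (adjusted p = 0.00033).

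The partner isoforms of complex IV were at or near the limit of detection. Cox4i2, the lung and hypoxia isoform of Cox4i1, had 0 to 7 counts in a library, and Cox6a2, the muscle isoform of Cox6a1, had 1 to 12. Cox6b2, the testis isoform, had 0.146 to 1.29 CPM, highest in no-tumor Tim-4low libraries (1.29, 0.783 and 1.27). Cox7a1, the heart and muscle isoform, had 0.355 to 1.21 CPM without and 1.11 to 1.85 with a tumor, and the rise was called in both populations (log2 fold changes 1.19 and 1.44, edgeR adjusted p = 0.0143 and 0.00438). Few reads stand behind each of these values. The listed forms Cox7b2, Cox8b and Cox8c were not among the measured genes.

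In complex V, the genes for the proton-ring subunit c are identical in mature product. Atp5g1 rose by 0.94 and 0.65 (Tim-4high and Tim-4low) and Atp5g3 by 0.78 and 0.67, whereas Atp5g2, at 0.377 to 1.34 CPM in these groups, was not called (0.32, adjusted p = 0.446, and -0.52, adjusted p = 0.211, edgeR). Atp5o, the stalk protein that confers oligomycin sensitivity, had 53.8, 57.6 and 52.8 CPM in no-tumor and 99.0, 101 and 106 in isotype Tim-4high libraries. In Tim-4low libraries it had 60.3, 60.9 and 64.5 without and 85.9, 91.3 and 88.1 with the tumor. All isotype libraries were higher, with Tim-4high above Tim-4low among them. With anti-Tim-4 the populations overlapped, at means of 97.0 CPM in Tim-4high and 96.3 in Tim-4low cells. The catalytic subunits of the head, Atp5a1 and Atp5b, rose by 0.51 and 0.64 in Tim-4high and by 0.34 and 0.45 in Tim-4low cells.

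**Figure D2:**
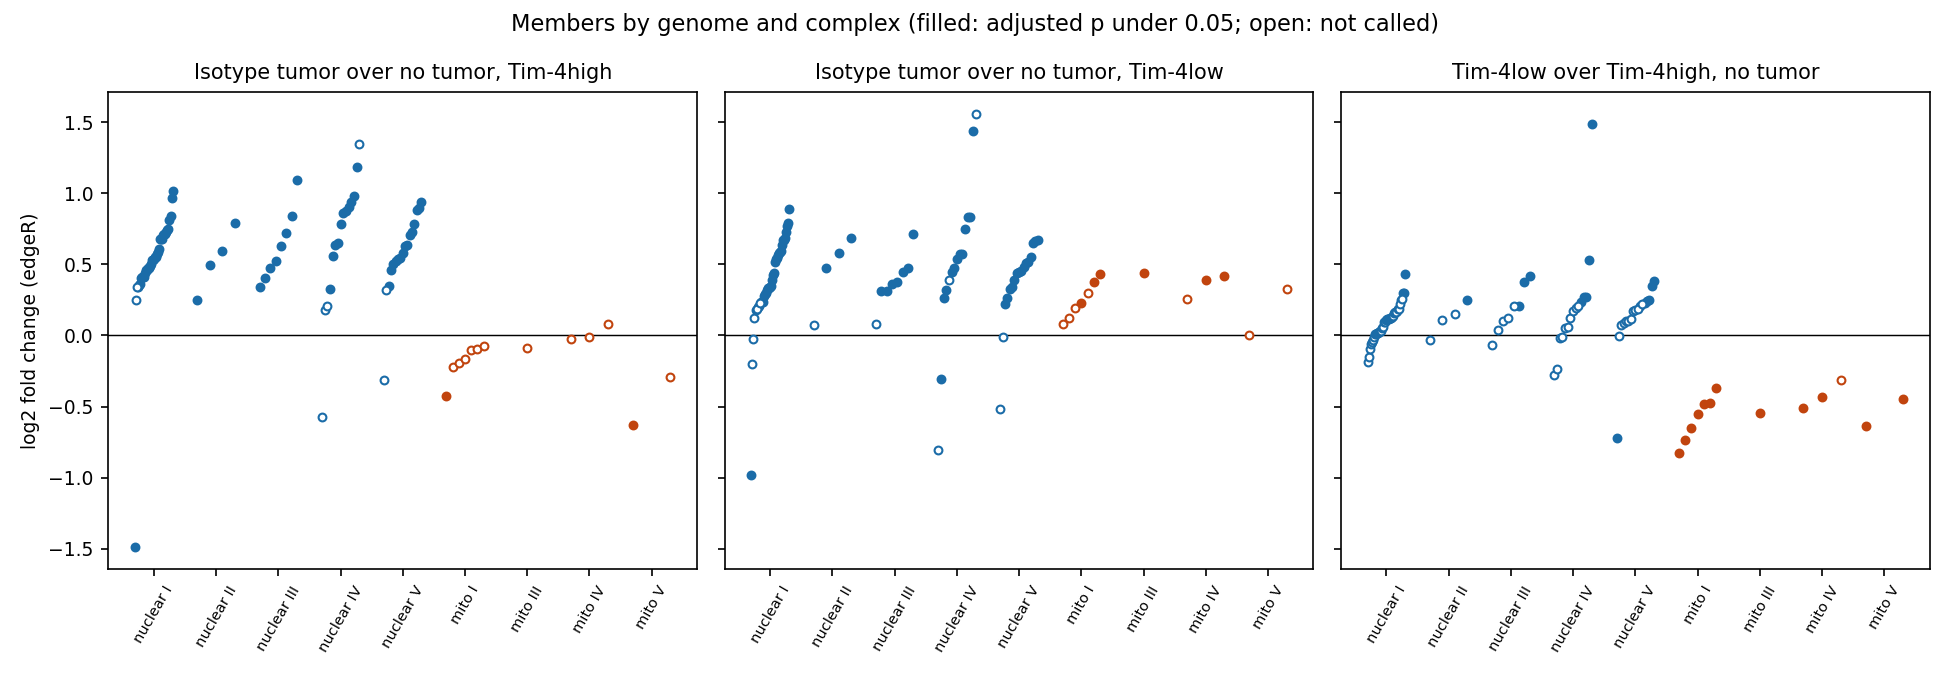
Log2 fold change of each tested member by genome and complex, filled where the edgeR adjusted p was under 0.05. With the tumor most nuclear points lie above 0 in every complex while 12 of 13 mitochondrial points lie below 0 in Tim-4high and all above 0 in Tim-4low cells, and Ndufa4l2, at 0 to 3 counts without a tumor, is left out.

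Ndufa4 went the other way. Long counted with complex I, as its symbol says, its product is now known as a subunit of complex IV. It had 66.6, 59.3 and 60.9 CPM in no-tumor Tim-4high and 54.7, 60.2 and 60.1 in no-tumor Tim-4low libraries. Isotype libraries had 27.6, 17.6 and 21.3 CPM in Tim-4high and 28.3, 27.9 and 32.2 in Tim-4low cells, and anti-Tim-4 libraries 18.5, 16.2 and 15.3 and 25.3, 27.9 and 20.1. All 12 tumor libraries lay below all 6 no-tumor libraries. The log2 fold changes with tumor and isotype were -1.49 ± 0.14 in Tim-4high (edgeR adjusted p = 7.31e-07) and -0.98 ± 0.14 in Tim-4low cells (adjusted p = 3.52e-05). The difference between the populations, 0.50, was not called (adjusted p = 0.204). In the anti-Tim-4 tumor groups the changes were -1.90 and -1.26 against the same no-tumor libraries.

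Ndufa4l2, a paralog of Ndufa4 known as a hypoxia-responsive gene, was near 0 without a tumor. Its counts were 0, 1 and 0 in no-tumor Tim-4high and 3, 0 and 0 in no-tumor Tim-4low libraries. With tumor and isotype they were 18, 58 and 37 in Tim-4high and 28, 61 and 26 in Tim-4low cells, and with anti-Tim-4 they were 44, 106 and 91, and 24, 37 and 61. No tumor library was as low as any no-tumor library, and its level stayed at or under 4.08 CPM. Summed markers of mesothelial cells and fibroblasts, of which 9 of 9 were higher with tumor and isotype, were 0.248 to 0.845 CPM in no-tumor, 9.40 to 45.6 in isotype Tim-4high, 22.1 to 75.4 in isotype Tim-4low, 4.27 to 6.80 in anti-Tim-4 Tim-4high and 15.2 to 26.2 in anti-Tim-4 Tim-4low libraries, and no marker was at 0 throughout any group. Their part in the Ndufa4l2 counts was not tested.

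AA467197 (chr2:122636986-122641191, mm10), a further Ndufa4 paralog also known as Nmes1, is not a member and was added after its values were seen. It had 0.411, 0.671 and 0.566 CPM in no-tumor Tim-4high and 4.57, 0.783 and 0.193 in no-tumor Tim-4low libraries. Isotype libraries had 86.7, 215 and 123 CPM in Tim-4high and 186, 275 and 200 in Tim-4low cells, and anti-Tim-4 libraries 225, 300 and 341 and 108, 165 and 165. Every tumor library stood above every no-tumor library. Per kilobase of joined exon length, its mean of 118 CPM in isotype Tim-4high cells was above that of many nuclear members. As above, the order by this measure is uncertain.

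Cox7a2l, which promotes the joining of complexes III and IV into supercomplexes, was the other member called lower in Tim-4low cells. In Tim-4low libraries it had 166, 158 and 174 CPM without a tumor and 131, 124 and 147 with tumor and isotype, without overlap, a log2 fold change of -0.31 ± 0.10 (edgeR adjusted p = 0.0201). In Tim-4high libraries it had 197, 152 and 153 without and 188, 179 and 202 with the tumor, which overlap. Of the members with at least 10 CPM, the isotype libraries of Ndufa6 also lay wholly below the no-tumor ones in Tim-4low cells, and its change was not called (-0.20, adjusted p = 0.104). Within isotype tumors Cox7a2l was lower in Tim-4low than in Tim-4high cells, by -0.50 ± 0.10 (adjusted p = 0.00236).

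**Figure D3:**
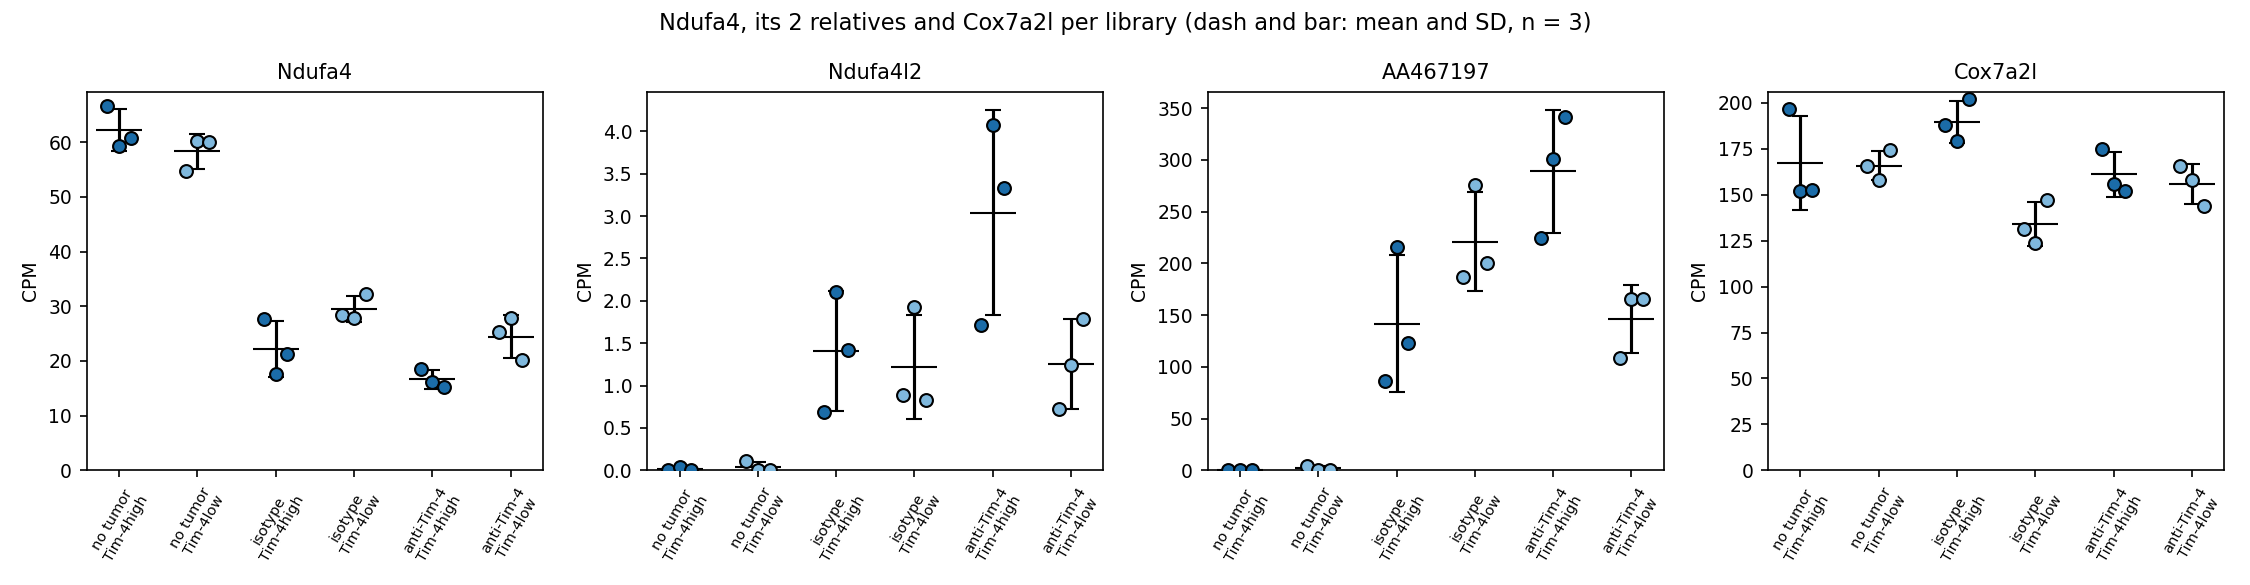
CPM per library in the 6 groups for Ndufa4, its relatives Ndufa4l2 and AA467197, and Cox7a2l, with the mean and SD of 3 libraries. Ndufa4 is 54.7 to 66.6 CPM in no-tumor and 15.3 to 32.2 in tumor libraries, while the tumor libraries of both relatives lie above all no-tumor ones.

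No mitochondrial member was called higher with the tumor in Tim-4high cells. Of 13, 0 were higher and 2 were lower between isotype tumor and no-tumor libraries, where 27.3% and 24.1% of all genes were, and their median log2 fold change was -0.10. The 2 were mt-Atp8, a small stator subunit of complex V, at 98.2, 100 and 107 CPM without and 70.0, 69.6 and 58.0 with the tumor (-0.63 ± 0.16, edgeR adjusted p = 0.00376), and mt-Nd4l, a proton-pumping subunit of complex I, at 82.5, 70.9 and 75.4 and 60.7, 55.1 and 54.7 CPM (-0.42 ± 0.12, adjusted p = 0.00777). Groups did not overlap for either of them and overlapped for the other 11. Over all genes, 28.1% lay wholly below with the tumor. The catalytic mt-Co1 had 6697, 5346 and 5907 CPM without and 5721, 6236 and 7010 with the tumor (0.08 ± 0.12, adjusted p = 0.588). For mt-Cytb, the central subunit of complex III, the change was -0.09 ± 0.12. The 95% intervals of the 13 members ran from -0.97 to 0.32. Without no-tumor Tim-4high library 2, which had the lowest mitochondrial sum of its group, 5 members were lower.

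In Tim-4low cells the 13 mitochondrial members all had positive log2 fold changes with tumor and isotype, with a median of 0.30. Where 25.2% of all genes were called higher, 6 of the 13 were (edgeR). These were mt-Cytb (0.44), mt-Nd5 (0.43), mt-Co1 (0.42), mt-Co3 (0.39), mt-Nd6 (0.38) and mt-Nd1 (0.23). The gene mt-Cytb had 1148, 815 and 871 CPM without and 1327, 1248 and 1275 with the tumor (± 0.12, adjusted p = 0.00796), and mt-Co1 had 5199, 4003 and 4110 and 6039, 5658 and 6069 CPM (± 0.12, adjusted p = 0.00719). Both groups were separate for these and for 5 members in all. Over all genes, 29.1% lay wholly above with the tumor. The count of calls depended on single libraries. It was 10 without no-tumor Tim-4low library 1, which had the highest mitochondrial sum of its group and stood apart in Timd4 and in B and mast cell markers. It was 2 and 3 without no-tumor Tim-4low libraries 2 and 3, and 3 without isotype Tim-4low library 3. It was 3 when the compared groups were fitted alone.

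The comparison of anti-Tim-4 tumor with no-tumor cells used the same no-tumor libraries. In Tim-4high cells 73 nuclear members were higher and 2, Ndufa4 and Atp5s, lower, with 27.4% and 25.5% over all genes, and 4 mitochondrial members, mt-Nd1, mt-Nd2, mt-Nd4l and mt-Atp8, were lower. In Tim-4low cells 67 nuclear members were higher and 2, Ndufa4 and Cox6b2, lower, with 23.8% and 22.9% over all genes, and mt-Co1 and mt-Co3 were higher. Median log2 fold changes of the nuclear members were 0.55 and 0.39, and of the mitochondrial members -0.24 and 0.16. The 4 lower mitochondrial members were 2 without any one of no-tumor Tim-4high library 3 and anti-Tim-4 Tim-4high libraries 1 and 3. The 2 higher ones were 7 without no-tumor Tim-4low library 1, 1 without no-tumor Tim-4low library 2 or 3 or anti-Tim-4 Tim-4low library 1, and 4 without anti-Tim-4 Tim-4low library 2.

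Without a tumor, the 2 genomes differed in opposite directions between the populations. Tim-4low cells had lower mitochondrial and, for some subunits, higher nuclear transcripts than Tim-4high cells. Of the 13 mitochondrial members 12 were lower (edgeR, adjusted p under 0.05) and none higher, with a median log2 fold change of -0.51, and of 83 nuclear members 20 were higher and 1, Atp5s, lower, with a median of 0.12. Among all genes 12.8% were higher and 11.8% lower, and the median was 0.02. Every Tim-4low library lay below every Tim-4high library for 11 of 13 mitochondrial members, and above for 34 and below for 3 of 85 nuclear members. Among all genes this held for 17.2% below and 17.7% above.

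The largest mitochondrial difference was in mt-Nd5, a large proton-pumping subunit of complex I. It had 1346, 995 and 1268 CPM in Tim-4high and 823, 601 and 614 in Tim-4low libraries, without overlap (-0.82 ± 0.17, edgeR adjusted p = 0.00195). The other genes of complex I followed with -0.73 for mt-Nd4l (adjusted p = 0.000378), -0.65 for mt-Nd6, -0.55 for mt-Nd4, -0.48 for mt-Nd3, -0.47 for mt-Nd2 and -0.37 for mt-Nd1. In the other complexes the values were -0.55 for mt-Cytb, -0.51 for mt-Co3, -0.43 for mt-Co1, -0.64 for mt-Atp8 and -0.45 for mt-Atp6. The one gene not called was mt-Co2 (-0.31 ± 0.11, adjusted p = 0.0583), at 1129, 916 and 1040 against 965, 719 and 802 CPM. It shares the most reads with a chromosome 1 copy, and with the copies' counts added 13 of 13 members were lower.

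Of the nuclear members higher in no-tumor Tim-4low cells, Cox5a (0.53, edgeR adjusted p = 0.00112), Ndufs8, a core iron-sulfur subunit of complex I (0.44, adjusted p = 0.000872), and Uqcrq (0.42, adjusted p = 0.00151) had the largest log2 differences above 10 CPM. Atp5j2 had 0.38, Uqcrfs1 0.37, Atp5e 0.35, Ndufa13 0.30 and Sdhd 0.25. Ndufs8 had 23.5, 24.0 and 21.4 CPM in Tim-4high and 28.1, 32.4 and 32.5 in Tim-4low libraries, which did not overlap. The minor form Cox6b2 had 1.49 (adjusted p = 0.0068).

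These calls varied with the fit and with libraries. With library number as a block, which pairs the populations of a condition, 13 mitochondrial members were lower and 26 nuclear members higher. Without both no-tumor libraries 1, which stood apart in their markers, 13 mitochondrial members were lower and 15 nuclear members higher. With the 2 groups fitted alone, 2 mitochondrial and 9 nuclear members were called, and without no-tumor Tim-4high library 1 or Tim-4low library 3, 9 nuclear members were. In the authors' deposited table for this comparison, 12 of 13 mitochondrial members had an FDR under 0.05 with higher values in Tim-4high cells, by 1.30-fold for mt-Nd1 to 1.78-fold for mt-Nd5, and 8 nuclear members had lower values in Tim-4high cells. Marker sums moved with the sort. Monocyte markers were 415 to 1077 CPM in Tim-4high and 2265 to 3065 in Tim-4low, dendritic cell markers 22.4 to 41.7 and 77.7 to 161, and macrophage markers 36750 to 45370 and 26720 to 29680. T cell markers were 7.735 to 33.5 CPM in Tim-4high and 49.9 to 123 in Tim-4low, and red cell and platelet markers 433 to 530 and 146.2 to 171.5. Sums of the remaining marker lists overlapped. Their part in the member differences was not tested.

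**Figure D4:**
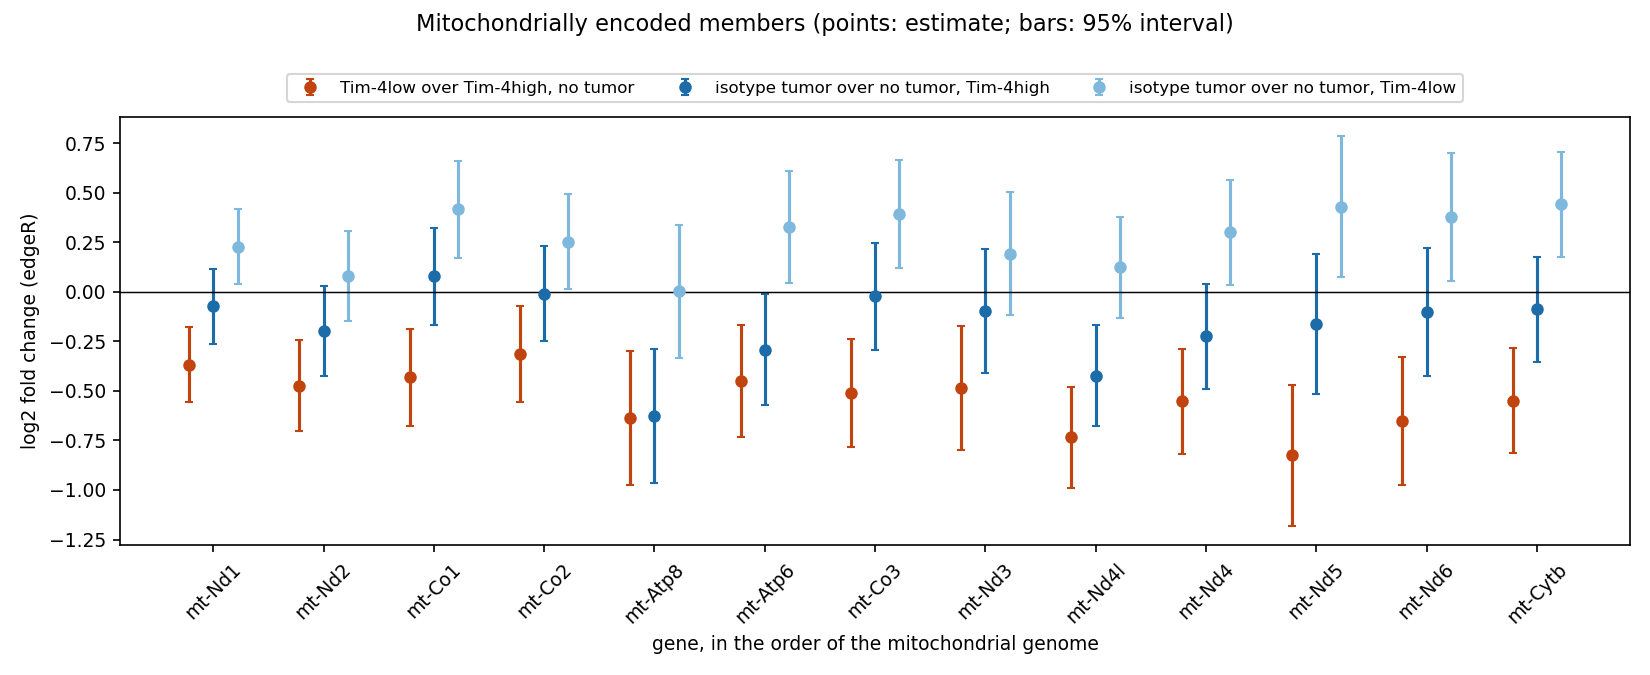
Log2 fold changes of the 13 mitochondrial members, in genome order, for the population difference without a tumor and for the tumor in each population, with 95% intervals. Between the populations all 13 points lie below 0, and with the tumor 12 of 13 lie below 0 in Tim-4high and all at or above 0 in Tim-4low cells.

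With tumor and isotype, no mitochondrial member was called between the populations, none had an unadjusted p under 0.05 in edgeR, and DESeq2 also called 0. The median log2 difference was -0.09, and 95% intervals ran from -0.58 to 0.45. Of the nuclear members 4 were higher in Tim-4low cells, Ndufa4 (0.41, adjusted p = 0.0453), Sdhb (0.34), Ndufs4 (0.24) and Cox6b2 (1.26), and 4 were lower, Cox7a2l (-0.50), Ndufa1 (-0.31), Ndufa6 (-0.28) and Atp5o (-0.21), where 11.3% and 12.9% of all genes were. With the replicate block, 5 were higher and 10 lower. Leaving out any one of the 6 libraries left 2 to 5 calls in all.

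With anti-Tim-4, no member was called between the populations by edgeR, where 1.39% of all genes were. At an unadjusted p under 0.05 there were 7 nuclear and 5 mitochondrial members, and DESeq2 called 1 and 0. With the replicate block Ndufa4 was higher and Ndufa4l2 lower in Tim-4low cells, and without anti-Tim-4 Tim-4low library 3, 1 nuclear member was called. The largest well expressed difference was that of Ndufa4 (0.55, adjusted p = 0.0740).

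The difference in the tumor's effect between the populations was tested as an interaction. For the mitochondrial members, the log2 change was more positive in Tim-4low cells for 13 of 13, with a median of 0.48 against -0.02 over all genes, yet none passed the adjusted threshold in edgeR. The smallest adjusted p was 0.0865, 9 had an unadjusted p under 0.05 and DESeq2 called 4. With the replicate block 6 were called, mt-Nd4, mt-Nd4l, mt-Nd6, mt-Cytb, mt-Co3 and mt-Atp6. Without no-tumor Tim-4high library 2 there were 2 calls and without no-tumor Tim-4low library 1 there were 6. The difference for the mitochondrial part therefore did not hold in every fit.

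For the nuclear members the interaction was negative for 72 of 83, with a median of -0.17, and 4 were called. Those reported are Ndufa6 (-0.54, edgeR adjusted p = 0.0432), Ndufa13 (-0.45, 0.0258) and Atp5o (-0.39, 0.0348). Among all genes 2.21% were lower and 1.32% higher. The block gave 12 calls, which included Uqcrq, Cox5a and Cox7a2l. Without one of no-tumor Tim-4high library 3, no-tumor Tim-4low libraries 2 or 3, isotype Tim-4high library 3 or isotype Tim-4low libraries 1 or 2, none was called, and without isotype Tim-4high library 1 or 2, 1 was.

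Anti-Tim-4 and isotype tumors differed in no member at an adjusted p under 0.05 in either population (edgeR). In Tim-4high cells, where 7.97% of all genes were called, 10 nuclear and 1 mitochondrial member had an unadjusted p under 0.05 and DESeq2 called 2 and 1. The mitochondrial one was mt-Nd2, at 646, 657 and 738 CPM with isotype and 561, 576 and 501 with anti-Tim-4, which did not overlap (-0.32, adjusted p = 0.0769). In the authors' deposited table for this comparison the fold was -1.25 for mt-Nd2, -1.17 for Cox6a1 and -1.18 for Cox7a2l, the 3 members with an FDR under 0.05. The 95% intervals of the members with at least 10 CPM ran from -0.72 to 0.45 for nuclear and from -0.55 to 0.55 for mitochondrial genes. Fitted on these 2 groups alone, 3 nuclear and 1 mitochondrial member were called, and without isotype Tim-4high library 2, 1 nuclear member was.

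In Tim-4low cells, where 0.325% of all genes were called, 2 nuclear and 2 mitochondrial members had an unadjusted p under 0.05 and DESeq2 called 0 and 1. The lowest adjusted p belonged to mt-Nd1 (-0.34, adjusted p = 0.126), at 1112, 1024 and 1151 CPM with isotype and 871, 867 and 868 with anti-Tim-4, which did not overlap. Intervals ran from -0.57 to 0.44 and from -0.62 to 0.30. In the interaction of antibody and population none of the members was called (edgeR), where 2.93% of all genes were. There 4 nuclear and 0 mitochondrial members had an unadjusted p under 0.05, DESeq2 called 1 and 0, the replicate block 2, Cox7a2l and Cox5a, and the fit without anti-Tim-4 Tim-4low library 3 gave 2.

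Genes around the chain were followed with lists of factors that build it, feed it or copy and transcribe mitochondrial DNA. The counts that follow, with tumor and isotype, stand beside 27.3% of all genes higher and 24.1% lower in Tim-4high cells, and 25.2% and 24.6% in Tim-4low cells. Most genes of the tricarboxylic acid cycle and of glycolysis were higher. The tricarboxylic acid cycle had 13 of 18 genes higher and none lower in Tim-4high, and 11 higher and 1 lower in Tim-4low cells. Mdh2, malate dehydrogenase, rose by 1.27 and 0.60 on the log2 scale and Cs, citrate synthase, by 0.73 and 0.42. Glycolysis had 16 of 17 and 17 of 17 higher, with larger changes, such as Pgk1, phosphoglycerate kinase (2.88 and 2.49), and Aldoa, aldolase (2.67 and 2.28). The list medians were 0.43 and 0.25 for the cycle and 1.90 and 1.78 for glycolysis. Cytochrome c, enzymes that feed ubiquinone and those that make it had 12 of 22 higher and 1 lower, and 7 higher and 1 lower, the latter count of higher genes near the share among all genes. Among them Cycs, cytochrome c, rose by 1.07 ± 0.15 and 1.14 ± 0.14 (edgeR adjusted p = 2.11e-05 and 1.18e-05).

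Factors that assemble the complexes had calls in both directions. Complex IV factors had 12 of 21 higher and 2 lower in Tim-4high, and 9 higher and 1 lower in Tim-4low cells. Coa5 rose by 0.91 and 1.08, and Cox17, a copper chaperone, by 0.69 and 0.63. Complex I factors had 7 of 18 higher and 3 lower, and 6 higher and 4 lower. For this list the lower counts lay near or under the shares among all genes, and its medians were 0.11 and 0.13. For complexes II, III and V the counts in Tim-4high cells were 2 of 4, 2 of 6 and 1 of 5 higher with none lower, and in Tim-4low cells 1, 1 and 1 higher with 1 complex II factor lower, on lists too short to be read against those shares. Mitochondrial ribosomal proteins, which translate the 13 mitochondrial members and are themselves nuclear-encoded, had 58 of 82 higher and 4 lower in Tim-4high, and 52 higher and 5 lower in Tim-4low cells, with medians of 0.38 and 0.32. Cytosolic ribosomal proteins had 12 of 82 higher and 9 lower, and 4 higher and 21 lower.

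The factors that copy mitochondrial DNA mostly fell, and those that transcribe it had calls in both directions. Replication and nucleotide supply had 0 of 15 higher and 10 lower in Tim-4high, and 1 higher and 9 lower in Tim-4low cells, with medians of -0.43 and -0.35. Dguok, mitochondrial deoxyguanosine kinase, had log2 fold changes of -0.63 and -0.52, Tk2, mitochondrial thymidine kinase, -0.56 and -0.56, and Polg2, the accessory subunit of the mitochondrial DNA polymerase, -1.23 and -0.56. Transcription factors and polymerase had 1 of 10 higher and 6 lower, and 3 higher and 5 lower. Polrmt, the mitochondrial RNA polymerase, had -0.53 and -0.49, and Tfam, which packages mitochondrial DNA and starts its transcription, -0.46 and -0.48, whereas Mrpl12, a ribosomal protein that also binds the polymerase, rose by 0.51 and 0.51. Factors that cut, modify or degrade mitochondrial RNA had 5 of 19 higher and 4 lower, and 6 higher and 3 lower, near the shares among all genes in Tim-4high cells.

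The mitochondrial ribosomal RNAs are transcribed from the heavy strand, as are all mitochondrial members but mt-Nd6, and were called higher in both populations. The small one, mt-Rnr1, rose by 1.33 ± 0.15 in Tim-4high and 0.89 ± 0.14 in Tim-4low cells, and the large one, mt-Rnr2, by 0.83 ± 0.14 and 0.77 ± 0.14 (edgeR, all adjusted p under 0.05). Their summed level was 279 to 472 CPM in no-tumor, 595 to 741 in isotype and 471 to 517 in anti-Tim-4 libraries. How RNA was selected for the libraries is not given, and its part in these levels was not tested.

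**Figure D5:**
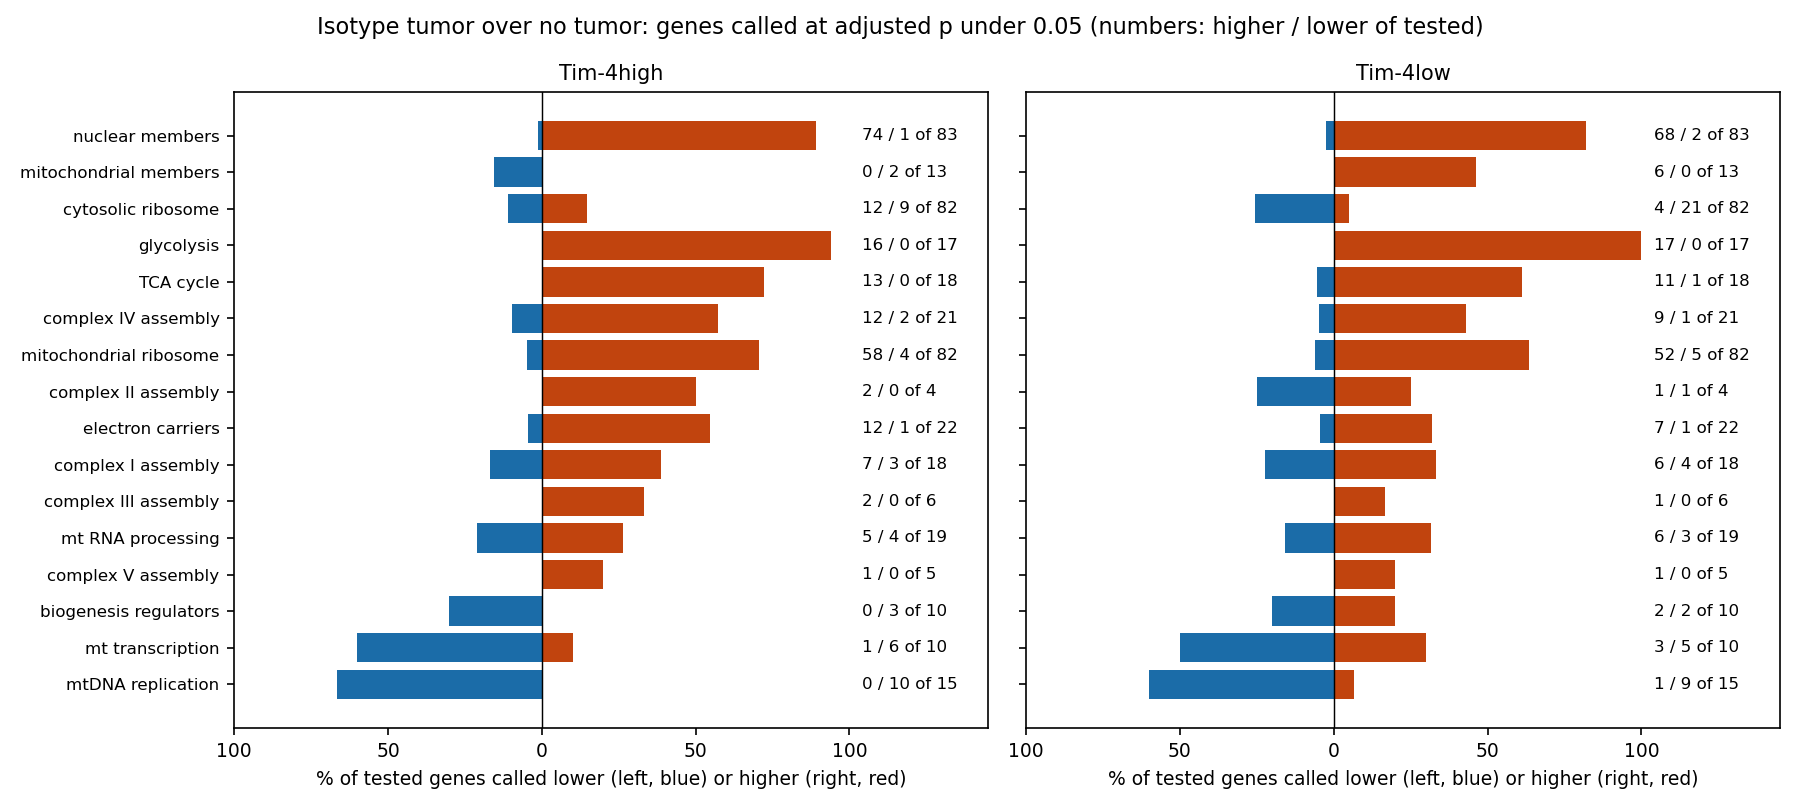
Share of each list's tested genes called higher (right) or lower (left) with tumor and isotype, for Tim-4high and Tim-4low cells, with the counts printed beside the bars. Nuclear members show 74 higher and 1 lower of 83 and 68 higher and 2 lower, and the list for replication of mitochondrial DNA lies to the left in both panels.

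Promoters are shown because the nuclear members moved together. RefSeq windows from 250 bases before to 50 bases after a gene's start (GRCm38.p6) were found for 64 of the 85 nuclear members, 69 windows in all. Of these, 18.8% held GCGCATG, a core of the NRF1 motif, on either strand, against 3.91% of all 32851 windows and 6.48% of the 13558 windows of tested genes. The YY1 motif core AAGATGG was in 14.5%, against 6.34% and 6.90%, and the ETS motif CCGGAAG in 23.2%, against 8.86% and 16.8%. The letters ACGTG, the core of a hypoxia response element, were in 23.2%, against 19.6% and 24.8%. A match describes these letters and no binding was measured. The windows below are those of Ndufs4 (chr13:114388045-114388344, minus strand), Ndufb8 (chr19:44555393-44555692, minus strand) and Cox5a (chr9:57520982-57521281, plus strand), which rose, and of Ndufa4 (chr6:11907401-11907700, minus strand), which fell. Capitals mark AAGATGG in Ndufs4, GCGCATG and AAGATGG, on either strand, in Ndufb8, and ACGTG in Cox5a. None of the 4 motifs is in the Ndufa4 window. These windows are examples, and each motif was also absent from most member windows, though nearly all nuclear members rose. A link between motif and direction was not tested.
Ndufs4: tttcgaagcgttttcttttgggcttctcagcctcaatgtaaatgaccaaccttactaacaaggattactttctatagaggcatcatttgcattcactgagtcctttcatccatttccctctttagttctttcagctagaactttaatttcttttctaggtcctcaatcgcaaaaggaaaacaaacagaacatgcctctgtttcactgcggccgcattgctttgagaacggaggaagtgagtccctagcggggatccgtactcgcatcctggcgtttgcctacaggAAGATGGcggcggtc
Ndufb8: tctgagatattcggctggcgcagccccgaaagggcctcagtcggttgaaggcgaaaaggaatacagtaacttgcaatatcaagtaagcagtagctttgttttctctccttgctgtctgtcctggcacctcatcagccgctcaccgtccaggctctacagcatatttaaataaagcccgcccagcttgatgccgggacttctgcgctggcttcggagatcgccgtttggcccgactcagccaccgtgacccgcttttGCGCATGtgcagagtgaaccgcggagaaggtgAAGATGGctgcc
Cox5a: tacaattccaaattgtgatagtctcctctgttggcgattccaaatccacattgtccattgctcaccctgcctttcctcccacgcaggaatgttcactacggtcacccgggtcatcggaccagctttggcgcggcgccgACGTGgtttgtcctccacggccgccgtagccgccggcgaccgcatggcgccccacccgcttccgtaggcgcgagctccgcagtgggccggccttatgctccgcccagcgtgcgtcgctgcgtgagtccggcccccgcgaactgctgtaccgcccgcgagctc
Ndufa4: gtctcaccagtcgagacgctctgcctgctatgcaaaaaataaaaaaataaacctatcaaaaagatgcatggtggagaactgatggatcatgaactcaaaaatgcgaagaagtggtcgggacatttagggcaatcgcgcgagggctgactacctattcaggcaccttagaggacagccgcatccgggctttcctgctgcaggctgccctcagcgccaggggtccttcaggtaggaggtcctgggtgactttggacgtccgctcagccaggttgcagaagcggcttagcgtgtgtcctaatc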

How the data were processed

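RNA of 18 libraries in 6 groups of 3 was measured, and all were used. The authors deposited estimated counts per gene without normalization. STAR, DESeq2 and the build mm10 stand in the submitters' processing notes, with quantifier, annotation and use of strand not given in the sources used here. The authors' deposited tables give p-values, FDR values and signed linear fold values for 2 comparisons. Genes matched GENCODE M21, which gave identifiers, exon lengths and transcripts.

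Estimated counts were rounded. After filterByExpr 16609 genes remained, and the 6902 removed made up no more than 0.0878% of counts in any library. One model in edgeR 4.0.16 (R 4.3.3) covered the 6 groups, with TMM scaling, 12 residual degrees of freedom and quasi-likelihood tests. Calls used an adjusted p (Benjamini-Hochberg, over every gene tested) under 0.05. Copies were aligned with Biopython 1.88. The members, lists and tests were chosen with earlier results of these data known, and by symbol, so a list's count is no independent evidence. The naming rule took all mitochondrial members, up to 3 called nuclear members per complex and comparison with the largest changes and at least 10 CPM, the isoform pairs, and up to 3 genes per further list, and other members were named to complete a complex or a count, after their values were seen. Results of 1 member are not reported here. Alternatives were RLE factors, no filter, DESeq2 1.42.0, library sizes without mitochondrial genes, compared groups alone, a replicate block, libraries left out and, chosen after seeing the data, chromosome 1 copies added to their mitochondrial genes.

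Within a condition, deviations from group means of same-numbered libraries of both populations correlated at 0.155 to 0.4885 in 9 pairs, each over 0.1. The main tests used group means only, without this pairing. The replicate block, which pairs these libraries, was an alternative. Between conditions, same-numbered libraries correlated at -0.2936 to 0.1793 and were not taken as paired. Data were simulated for the isotype tumor comparison in Tim-4high cells (16609 genes). Drawn at any level, 105 genes were changed 1.5-fold and 95 were changed 2-fold. There edgeR recovered 34.3% of the former and 58.9% of the latter, with 4.17% false calls. The measured comparison had far more genes called, so these rates need not hold for it.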

Additional observations from a re-analysis of the deposited data

Results flagged for a closer look

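In 3 nuclear members reported here the change with tumor and isotype differed between the populations by the test of the interaction itself (edgeR's quasi-likelihood test, adjusted p under 0.05), and each was less positive in Tim-4low cells. For Ndufa6, an accessory subunit of complex I, the difference was -0.5426 on the log2 scale. It had 33.3, 29.3 and 29.9 CPM in no-tumor and 41.1, 37.8 and 38.4 in isotype Tim-4high libraries, but 35.6, 36.0 and 39.0 in no-tumor and 30.4, 30.8 and 35.2 in isotype Tim-4low libraries, so that the isotype libraries were above the no-tumor ones in the former and below them in the latter. For Ndufa13, a complex I subunit also known as GRIM-19, the difference was -0.4502, with 31.5, 33.8 and 29.8 against 54.6, 52.0 and 52.9 CPM in Tim-4high and 38.8, 39.0 and 39.5 against 48.3, 47.1 and 48.6 in Tim-4low libraries. For Atp5o, the stalk protein of ATP synthase, it was -0.3852.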

How the results depend on the processing

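Counts of nuclear members called with the tumor moved little, in Tim-4high cells 75 with isotype (74 to 75 with a library left out) and 75 with anti-Tim-4 (72 to 76), in Tim-4low cells 70 (64 to 70) and 69 (57 to 72). No alternative reversed a direction among the 139 results of single named genes, and 175 alternative values fell short of the threshold. Scaling moved the median of all genes by less than 0.1. Other counts depended on the fit, and the causes were not tested beyond fewer samples in the fits that left some out. Fitted alone, the compared groups gave 9 nuclear and 2 mitochondrial calls between populations without a tumor, 3 mitochondrial calls for isotype and 0 for anti-Tim-4 against no tumor in Tim-4low cells, 3 nuclear and 1 mitochondrial for the antibody in Tim-4high cells and 1 nuclear for its interaction. Without a filter, nuclear calls were 3 between populations with isotype and 1 for the tumor interaction, and mitochondrial calls 2 for anti-Tim-4 against no tumor in Tim-4high cells. DESeq2 gave 12 nuclear and 4 mitochondrial calls for the tumor interaction, 1 nuclear for the antibody interaction, 1 nuclear between populations with anti-Tim-4, 2 nuclear and 1 mitochondrial for the antibody in Tim-4high and 1 mitochondrial in Tim-4low cells. The replicate block gave 15 nuclear calls between populations with isotype, 2 with anti-Tim-4, 12 nuclear and 6 mitochondrial for the tumor interaction, 2 nuclear for the antibody interaction and, across conditions where numbers do not pair, 4 mitochondrial for anti-Tim-4 against no tumor in Tim-4low cells. The block moved no other count of calls by over 1.5 times. Without both isotype libraries 3 there were 3 nuclear calls between populations with isotype, 3 mitochondrial for the tumor in Tim-4low cells and 0 nuclear for its interaction. Without both no-tumor libraries 1, mitochondrial calls were 10 and 7 for isotype and anti-Tim-4 against no tumor in Tim-4low cells and 2 for the tumor interaction.

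With each library left out in turn, nuclear calls ranged from 9 to 22 between populations without a tumor, 2 to 5 with isotype and 0 to 1 with anti-Tim-4, 0 to 1 for the antibody in Tim-4high cells, 0 to 5 for the tumor interaction and 0 to 2 for the antibody interaction. Mitochondrial calls ranged from 9 to 13 between populations without a tumor, 2 to 5 for isotype and for anti-Tim-4 against no tumor in Tim-4high cells, 2 to 10 and 1 to 7 in Tim-4low cells, and 0 to 6 for the tumor interaction. With 3 libraries a group, changes can be missed. The simulated data gave back 34.3% of 1.5-fold and 58.9% of 2-fold changes. They held far fewer changed genes than were called with the tumor, so these rates need not hold for the members. Counts of members with an identical copy, and of isoforms under 2 CPM, are the least certain.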

Other observations

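Regulators of mitochondrial number and hypoxia genes were measured beside the chain. Of 12 genes for mitophagy and the hypoxia response, 6 were higher and 3 lower with tumor and isotype in Tim-4high, and 6 higher and 2 lower in Tim-4low cells (edgeR, adjusted p under 0.05). Among all genes 27.3% were higher and 24.1% lower in Tim-4high, and 25.2% and 24.6% in Tim-4low cells, so the lower counts lay near or under those shares. Bnip3, a mitophagy receptor, rose from 8.10 ± 0.540 to 52.2 ± 10.9 CPM (SD, n = 3) in Tim-4high and from 9.69 ± 0.364 to 81.4 ± 9.16 in Tim-4low cells. Hif1a, the oxygen-regulated transcription factor subunit, rose by 1.44 on the log2 scale in both, and Higd1a, a small protein of the inner membrane that binds complex IV, by 1.39 and 1.23. Of 10 regulators of mitochondrial biogenesis, 0 were higher and 3 lower in Tim-4high, and 2 were higher and 2 lower in Tim-4low cells, where the lower counts were again near the share among all genes. The lower ones in Tim-4high cells were Gabpb2 (-0.57), Nrf1 (-0.40) and Yy1 (-0.35). In Tim-4low cells Gabpb2 (-0.47) and Yy1 (-0.39) were lower, Perm1 (1.01) and Nfe2l2 (0.35) were higher, and Nrf1 was not called (-0.16, adjusted p = 0.154).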
